A study of Mus musculus with 3 samples.

Results

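Interferon-stimulated and antigen processing genes were examined in PDL-L2 cells, an immortalised line from mouse periodontal ligament, on 3 Affymetrix mouse genome arrays of total RNA. The set holds 43 genes chosen by name for what they do: 22 antiviral effectors, 6 RNA sensors with their partners, 8 signalling genes (chemokines included) and 7 genes of antigen processing. These members and the other gene lists below were chosen with earlier results of these data known. Their counts beside all genes are therefore a description and not independent support. A gene was read by the probe sets that carry its symbol as their only one, which gave 41 of the 43 among 18194 genes in all. Isg15, a ubiquitin-like protein, was found only on a probe set shared with another gene, and Ifi44 on none, so neither has a value here. Cells with endoglin knockdown had received a SMARTpool of siRNAs against endoglin (siENG) and then rhBMP-2 at 250 ng/ml. Their counterparts had received a non-targeting pool (siCont), followed by the same rhBMP-2 or by vehicle. All 3 conditions share the transfection, a differentiation medium with ascorbic acid and β-glycerophosphate, and an exposure of 12 h begun 48 h after transfection. Each condition has 1 array, so the differences below have no replicates behind them, no test between conditions was possible and no p-value is given. An array of siENG cells with vehicle is not analysed here, so an effect of the knockdown alone and one that needs BMP-2 cannot be told apart. In bulk RNA, fewer cells of a kind and less RNA per cell cannot be told apart either.

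Interferons are secreted when a cell detects foreign or misplaced nucleic acid. They bind receptors coupled to Janus kinases, which activate Stat factors, and these act on promoters through the interferon-stimulated response element (ISRE), which Stat2 reaches together with Irf9, and the gamma-activated sequence (GAS). The genes switched on block virus entry, copying and release, raise the level of the sensors themselves, and feed peptides to major histocompatibility complex (MHC) class I molecules for display to T cells. Fibroblasts express many of these genes at a low level without infection.

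The promoters of the members carry these elements to different extents, and stretches from 6 of those with an ISRE match are shown. Their differences between siENG and siCont run from near none to the largest described below. No member without an ISRE match, and none that was lower with siENG, is among them. The core ISRE was searched as GAAANNGAAA and GAS as TTCNNNGAA, both strands included, in RefSeq windows of GRCm38.p6 that run from 250 bases before to 50 bases after each start. A window was found for 34 member genes. A core ISRE stood in those of 16 (47.1%), against 1079 of all 27025 genes with a window (3.99%). By role it was found in 10 of 19 antiviral effectors, 3 of 5 RNA sensors, 2 of 4 signalling genes and 1 of 6 antigen processing genes. GAS stood in the windows of 9 members (26.5%) and of 9.55% of all genes. In the stretches, written 5′ to 3′ on the gene's strand, capitals mark the bases of ISRE and GAS matches, which can overlap. A core ISRE on the opposite strand reads TTTCNNTTTC.
Bst2, chr8:71537567-71537628, minus strand: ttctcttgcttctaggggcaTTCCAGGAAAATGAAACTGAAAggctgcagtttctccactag
Gbp3, chr3:142559979-142560034, plus strand: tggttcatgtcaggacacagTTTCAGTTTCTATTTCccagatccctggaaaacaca
Ifit3, chr19:34583353-34583436, plus strand: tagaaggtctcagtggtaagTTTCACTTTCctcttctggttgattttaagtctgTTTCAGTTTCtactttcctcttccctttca
Ifit1, chr19:34640765-34640833, plus strand: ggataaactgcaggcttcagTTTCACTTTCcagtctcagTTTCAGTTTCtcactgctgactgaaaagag
Igtp, chr11:58199491-58199551, plus strand: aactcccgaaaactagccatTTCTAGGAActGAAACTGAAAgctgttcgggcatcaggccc
B2m, chr2:122147528-122147577, plus strand: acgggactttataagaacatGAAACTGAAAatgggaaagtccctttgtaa
In Bst2 a GAS match runs into a pair of overlapping ISRE matches, and Gbp3 has an overlapping pair on the other strand. Ifit3 and Ifit1 each have 2 separate ISRE matches. Igtp has a GAS match just before its ISRE, and B2m has 1 ISRE match. A match of letters is a description and not evidence that a factor binds there.

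The siENG array was brighter than the others, with a 2% trimmed mean signal of 165, against 143 with siCont and BMP-2 and 140.2 with siCont and vehicle. Log2 ratios are therefore given relative to the median of all genes past a limit on signal, a mean log2 signal over the arrays that reaches the median over all probe sets (a geometric mean of 21.9). Below, the knockdown ratio sets siENG against siCont, both with BMP-2, the vehicle ratio sets siENG with BMP-2 against siCont with vehicle, and the BMP-2 ratio sets BMP-2 against vehicle, both with siCont. The shift removed was 0.24 (log2) for the knockdown ratio, 0.25 for the vehicle ratio and 0.01 for the BMP-2 ratio. As a guide to precision, the robust SD of genes of like signal in the same comparison is given. For the knockdown ratio it was 0.66 among the dimmest genes past the limit and 0.18 among the brightest. It measures spread over genes, not between cultures. Endoglin itself (Eng) had a signal of 108 with siENG and BMP-2, 299 with siCont and BMP-2 and 286 with siCont and vehicle (relative log2 knockdown ratio -1.71). Its second probe set gave -1.65. The Gapdh controls, a measure of RNA integrity, gave 3′ to 5′ ratios of 0.804, 0.774 and 0.758 on the same arrays in that order.

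With siENG and BMP-2, most members gave a higher signal than with siCont and BMP-2, and none was lower by 2-fold. Of the 41 members read, 36 were past the signal limit. A knockdown ratio of 2 or more was reached by 11 of these 36, against 1.40 percent of all 10419 genes past the limit, and a ratio of 0.5 or less by 0, against 1.72 percent. The relative log2 ratio was above 0 for 34 members and below 0 for 2, with a median of 0.49 (1.40-fold, range -0.75 to 2.63), where that of all genes is 0 by construction. Beyond 2 robust SDs of genes of like signal lay 16 members, all on the higher side, against 3.30 percent of all genes. The median was 0.59 for antiviral effectors, 0.49 for signalling genes, 0.46 for antigen processing genes and 0.34 for RNA sensors, so every role lay above 0. Just inside the limit were Sp100, Gbp2 and Oasl1, with geometric mean signals of 23.9, 27.4 and 29.5, and just outside it Rsad2, Dhx58 and Mx1, with 19.7, 15.1 and 12.6. Under a stricter limit at the 75th percentile, a geometric mean of 151, 19 members were left and 5 of them reached a ratio of 2, against 0.626 percent of the 6707 genes past it. Gbp3, Gbp2 and Sp100 pass the median limit only through the siENG array. The median of the antiviral effectors lies between the values of Sp100 and Gbp2. Without these genes the middle effector is Irgm1, at 0.23, under the medians of the other roles, so the order of the roles depends on the limit. With that limit set on the mean of the siCont arrays alone, chosen after seeing the data, 10 of 33 members reached a knockdown ratio of 2, against 1.19 percent of 10437 genes. The median over the 33 was 0.47.

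**Figure D1:**
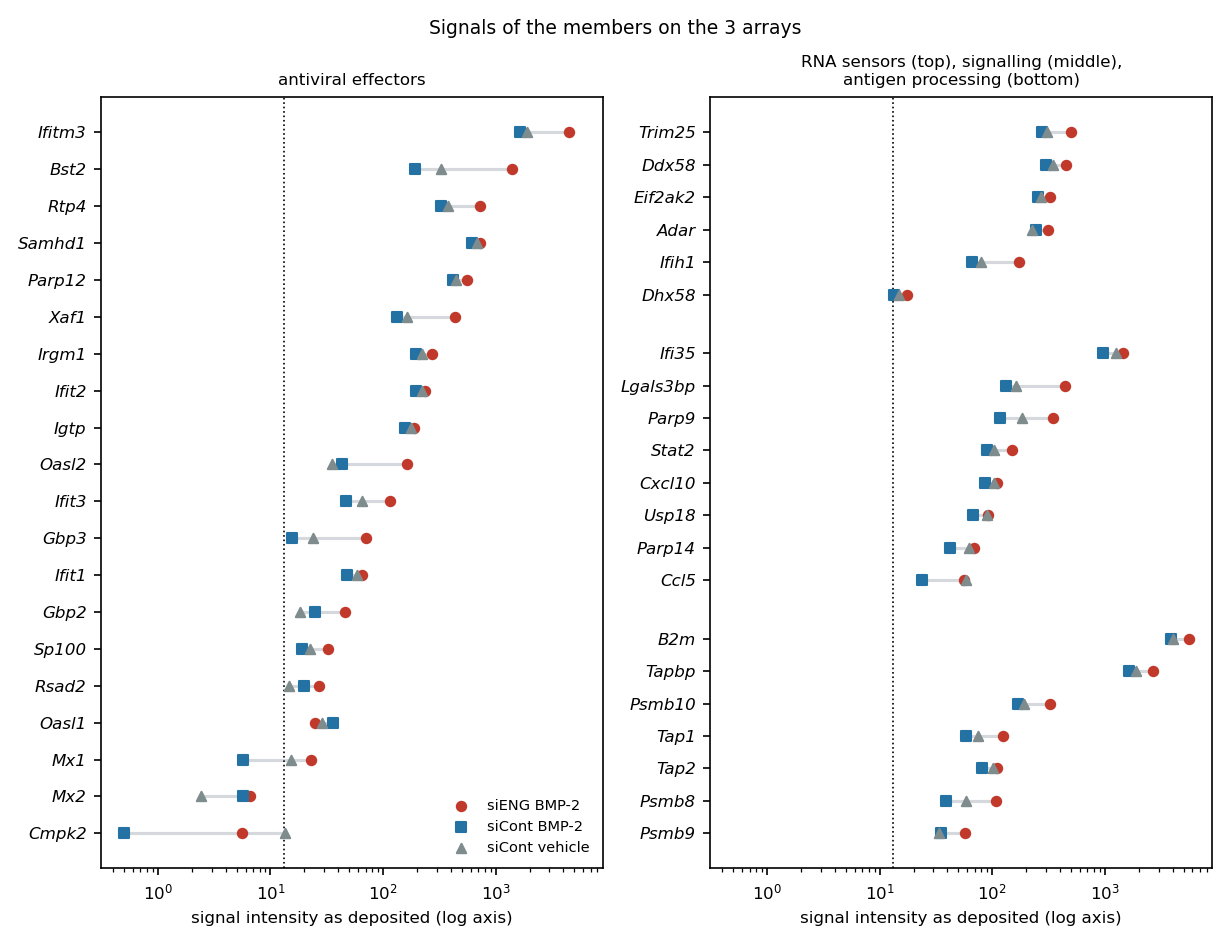
Deposited signal intensity (log axis) of the 41 members read, 1 row per gene, with a circle for siENG BMP-2, a square for siCont BMP-2 and a triangle for siCont vehicle; the dotted line marks 13.1, the highest signal of a Bacillus control probe set on any array. In most rows the circle lies farthest right and the square farthest left, and in Oasl1 the circle is the leftmost point.

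**Figure D2:**
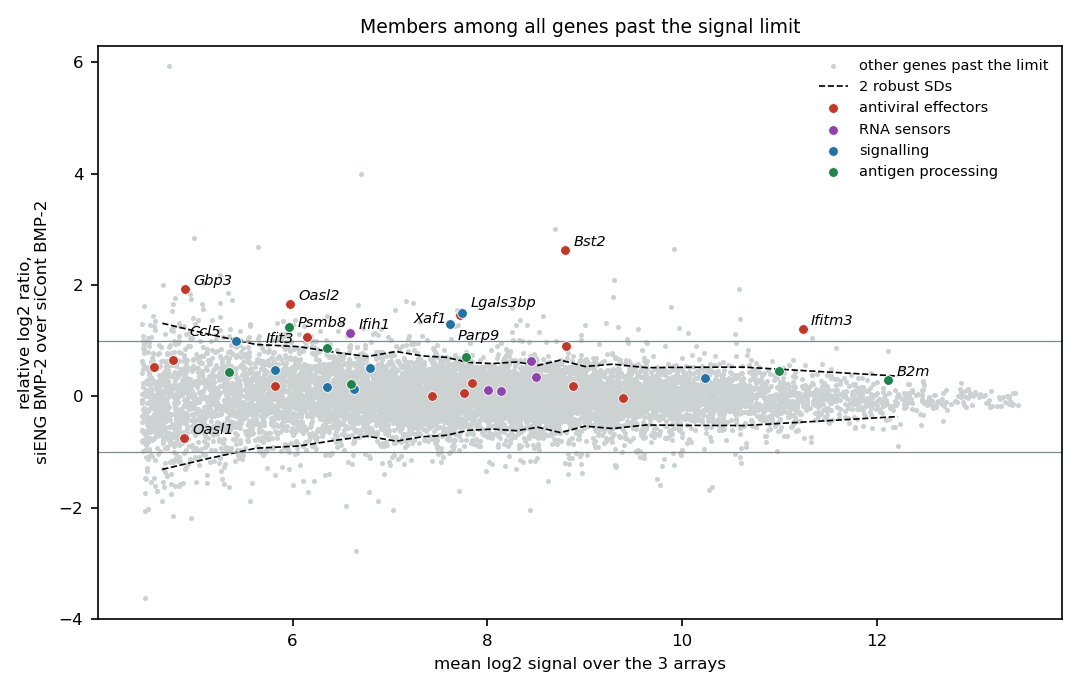
Relative log2 knockdown ratio, siENG against siCont, both with BMP-2 (vertical axis), and mean log2 signal over the 3 arrays (horizontal axis), with grey points for all 10419 genes past the limit and coloured points for the 36 members by role. Grey lines mark ratios of 2 and 0.5 and dashed lines 2 robust SDs; Bst2 stands highest of the members at 2.63 and 11 members lie at or above the upper grey line.

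In the account by role, the log2 values beside a member's signals are its relative log2 knockdown ratios unless another is named. Among the antiviral effectors Bst2, which tethers budding virus particles to the cell, differed most. Its signal was 1404 with siENG and BMP-2, 191 with siCont and BMP-2 and 328 with siCont and vehicle. Both BMP-2 arrays thus lay on opposite sides of the vehicle array, and the relative knockdown ratio was 6.20 (log2 2.63, robust SD 0.33). Gbp3, a GTPase that attacks the compartments of intracellular pathogens, had signals of 70.4, 15.6 and 23.9 on the siENG BMP-2, siCont BMP-2 and siCont vehicle arrays. It showed the same order at a far lower level, past the limit only through the siENG array and close on the siCont BMP-2 array to the highest Bacillus control there, 13.1, whose target mouse RNA does not hold (relative log2 ratio 1.93, robust SD 0.56). Oasl2, related to the oligoadenylate synthetases that sense double-stranded RNA, had 163 with siENG and BMP-2, 43.6 with siCont and BMP-2 and 34.9 with siCont and vehicle. Here both siCont arrays were low and close to each other, and the relative log2 ratio was 1.66 (robust SD 0.45). Gbp3 and Oasl2 rest on probe sets of a kind that may detect several transcripts, as do Sp100, Trim25, Ifi35, Tap2, Psmb8 and B2m.

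Xaf1, a partner of an apoptosis inhibitor, gave a signal of 433 with siENG and BMP-2 against 132 with siCont and BMP-2 and 163 with siCont and vehicle (relative log2 knockdown ratio 1.47, robust SD 0.30). Its second, dim probe set read 30.8, 16.3 and 24.9 in the same order and 0.68, on the other side of a ratio of 2. Ifitm3, a membrane protein that stops viruses from fusing with endosomes, was the brightest effector, with 4504 with siENG and BMP-2, 1646 with siCont and BMP-2 and 1894 with siCont and vehicle. At this brightness the robust SD was 0.18 and the relative log2 ratio 1.21. Ifit3, of a family that binds viral RNA, had 116, 46.8 and 65.4 on the siENG BMP-2, siCont BMP-2 and siCont vehicle arrays (relative log2 ratio 1.07, robust SD 0.45).

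The other effectors stayed under a ratio of 2, and the families were split. Next to Ifit3, Ifit1 had signals of 64.5 with siENG and BMP-2, 47.8 with siCont and BMP-2 and 58.7 with siCont and vehicle (0.19), and Ifit2 had 238, 194 and 221 in that order (0.05). Both relative log2 ratios lay within 1 robust SD, and Ifit1 and Ifit3 carry the same pair of ISRE matches by their letters, TTTCACTTTC and TTTCAGTTTC. The Oasl pair went apart. Oasl1, which in mice restrains the translation of Irf7, had 25.1 with siENG and BMP-2, 35.7 with siCont and BMP-2 and 28.7 with siCont and vehicle, the lowest relative log2 ratio of any member (-0.75, robust SD 0.56). Gbp2 stood at 0.65 (robust SD 0.66) with signals of 45.8, 24.7 and 18.2. Rtp4, a receptor chaperone, came close to a ratio of 2, with 731 with siENG and BMP-2, 329 with siCont and BMP-2 and 375 with siCont and vehicle (0.91, robust SD 0.33), while its dim second probe set, under the limit, gave -0.47. Sp100, a nuclear body protein, stood at 0.53 in a bin with a robust SD of 0.66. Near 0 were the immunity-related GTPases Irgm1 (0.23) and Igtp (0.01), the ADP-ribosyltransferase Parp12 (0.18) and Samhd1, which depletes nucleotides (-0.02). Samhd1 was read by 5 probe sets that differed among themselves. Its brightest had 723, 621 and 677 on the siENG BMP-2, siCont BMP-2 and siCont vehicle arrays, but another had 64.5, 116 and 54.2, a relative log2 ratio of -1.09, so the sign and size for this gene are not settled.

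Effectors under the limit are given by signal alone. Mx1, a dynamin-like GTPase that traps viral components, had 22.7 with siENG and BMP-2, 5.7 with siCont and BMP-2 and 15.3 with siCont and vehicle. The middle value lies under the highest Bacillus control, so the signal with siENG was at least 1.47-fold higher once the shift between the arrays is removed. Rsad2, which makes a chain-terminating nucleotide, had 26.8, 19.7 and 14.5 in that order. Mx2, at 6.6, 5.7 and 2.4, was within the Bacillus range on every array, and Cmpk2, a mitochondrial nucleotide kinase, was so at 5.6 with siENG and BMP-2 and 0.5 with siCont and BMP-2, against 13.4 with siCont and vehicle.

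Of the RNA sensors past the limit, Ifih1, the sensor of long double-stranded RNA, alone reached a ratio of 2. Its signal was 172 with siENG and BMP-2, 66.3 with siCont and BMP-2 and 78.9 with siCont and vehicle, so the siCont arrays were close and the siENG array stood above both (relative log2 knockdown ratio 1.13, robust SD 0.39). Trim25, the ubiquitin ligase that activates the sensor Ddx58, had 505 with siENG and BMP-2, 275 with siCont and BMP-2 and 308 with siCont and vehicle (0.63, robust SD 0.28). Ddx58 itself, which detects RNA with phosphates at its 5′ end, had 453, 303 and 349 in the same order (0.34, robust SD 0.28). Eif2ak2, the kinase that halts translation on double-stranded RNA, stood at 0.10. Adar, which edits double-stranded RNA and keeps it from the sensors, had 313 with siENG and BMP-2, 243 with siCont and BMP-2 and 226 with siCont and vehicle in its brightest probe set (0.12). A second probe set of Adar gave 255, 124 and 133 (0.80) and the third -0.12, so its value depends on the probe set. Dhx58, a regulator of these sensors, was under the limit in each of its 3 probe sets, which differed among themselves. The brightest had 17.4 with siENG and BMP-2, 13.3 with siCont and BMP-2 and 14.9 with siCont and vehicle. Another had 40.8, 2.2 and 15.6, of which the siCont BMP-2 value lies in the Bacillus range, and the third 14.9, 0.7 and 5.1. No ratio is given for this gene.

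In the signalling group the 2 largest ratios belonged to the secreted Lgals3bp and to Parp9. Lgals3bp, a glycoprotein that binds galectins and matrix, had a signal of 446 with siENG and BMP-2, 133 with siCont and BMP-2 and 164 with siCont and vehicle (relative log2 ratio 1.50, robust SD 0.30). Parp9, which acts with a ubiquitin ligase to promote expression of interferon-stimulated genes, had 345, 118 and 185 in that order (1.31, robust SD 0.35), with all 3 arrays well apart. Parp14, of the same enzyme family, had 68.9, 42.0 and 62.0 (0.47, robust SD 0.47), so here siENG was close to vehicle.

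Ccl5, a chemokine for T cells and monocytes, was lowest with siCont and BMP-2. It had 56.3 with siENG and BMP-2, 23.8 with siCont and BMP-2 and 58.1 with siCont and vehicle. Its relative log2 knockdown ratio was 1.0, only just at the line of 2-fold (robust SD 0.47), and its vehicle ratio -0.30. The chemokine Cxcl10 had 111, 85.6 and 103 on the same arrays (0.13). Stat2, the factor specific to the type I response, had 150.1 with siENG and BMP-2, 89.3 with siCont and BMP-2 and 103 with siCont and vehicle (0.51, robust SD 0.36). Usp18, which strips Isg15 from proteins and shuts off the receptor, stood at 0.18 with signals of 91.0, 68.1 and 88.9. The brightest of the group, Ifi35, had 1445 with siENG and BMP-2, 970.1 with siCont and BMP-2 and 1254 with siCont and vehicle (0.33, robust SD 0.26), and its other probe sets gave 0.48 and -0.07.

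All 7 antigen processing genes had a log2 knockdown ratio above 0, mostly by less than 2-fold. Psmb8, a catalytic subunit of the immunoproteasome, reached 2, with a signal of 108 with siENG and BMP-2, 38.7 with siCont and BMP-2 and 58.7 with siCont and vehicle (relative log2 ratio 1.24, robust SD 0.45). Psmb10, another such subunit, had 326, 169.9 and 190.0 (0.70, robust SD 0.30). The third, Psmb9, had 56.7, 35.2 and 33.7 (0.45, robust SD 0.56), so it stood within the spread of genes as dim. Their constitutive counterparts Psmb5, Psmb6 and Psmb7, which are not members, had relative log2 ratios of -0.09, 0.14 and 0.00. Of the peptide transporter, Tap1 had 125 with siENG and BMP-2, 58.4 with siCont and BMP-2 and 75 with siCont and vehicle (0.86, robust SD 0.39). Its partner Tap2 had 111, 80.5 and 102 (0.22, robust SD 0.39), with the siENG and vehicle arrays near each other. Tapbp, which holds class I molecules at the transporter, had 2694 with siENG and BMP-2, 1652 with siCont and BMP-2 and 1903 with siCont and vehicle (0.46, robust SD 0.18). B2m, the light chain of class I, was the brightest member at 5611, 3872 and 4033 (0.29, robust SD 0.18), and its second probe set had 5434, 3054 and 3202 (0.59). In the RefSeq order of coding genes Psmb9, Tap1, Psmb8 and Tap2 follow each other without another gene between, as do Ifit2 and Ifit3, Oasl2 and Oasl1, and Rsad2 and Cmpk2. Tap1 and Tap2, Ifit2 and Ifit3, and Oasl2 and Oasl1 nonetheless differed as given above, and these differences were not tested.

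Against the siCont vehicle array, fewer members stood out with siENG and BMP-2. A vehicle ratio of 2 or more was reached by 6 of 36, against 1.40 percent of all genes, and one of 0.5 or less by 0, against 1.84 percent. The 6 were Oasl2 (1.97), Bst2 (1.85), Gbp3 (1.30), Lgals3bp (1.19), Xaf1 (1.16) and Gbp2 (1.08), and Ifitm3 lay just under the line at 1.0. With the limit on the siCont arrays alone, which Gbp3 and Gbp2 do not pass, 5 of 33 reached it, Ifitm3 now among them, against 1.20 percent of all genes. The median over the 36 was 0.26, with 25 above 0 and 11 below. By role it was 0.49 for antigen processing genes, 0.42 for antiviral effectors, 0.21 for RNA sensors and -0.08 for signalling genes. The effector median counts Gbp3, Gbp2 and Sp100, which pass the limit only through the siENG array. Without these genes the middle effector is Parp12, at 0.09, under the median of the RNA sensors. Parp9 was at 0.65, Psmb8 at 0.62, Ifit3 at 0.58 and Ccl5 at -0.30, each with a knockdown ratio of 2 or more but a vehicle ratio below it. The signal of Lgals3bp apart, that of no signalling gene was more than 2 robust SDs from vehicle. Of the 19 members past the stricter limit, 3 reached a ratio of 2, against 0.745 percent of all genes past it.

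With BMP-2, siCont cells gave slightly lower signals for most members than with vehicle. The relative log2 BMP-2 ratio was below 0 for 31 of 36 members and above 0 for 5, with a median of -0.21 (0.862-fold). No member was at a ratio of 2 or more, against 1.01 percent of all genes, and only Ccl5 at 0.5 or less (-1.30), against 0.662 percent. All 8 signalling genes were below 0, with a median of -0.39. The median was -0.21 for antigen processing genes, -0.20 for antiviral effectors and -0.17 for RNA sensors. Beyond 2 robust SDs on the lower side were 6 members, against 4.46 percent of all genes, and 0 on the higher side, against 532 of 10419 genes. The 6 were Ccl5, Bst2 (-0.78, robust SD 0.17), Parp9 (-0.66, robust SD 0.22), Ifi35 (-0.38, robust SD 0.15), Ifitm3 (-0.21, robust SD 0.09) and Tapbp (-0.21, robust SD 0.09). Above 0 stood Gbp2 (0.43), Oasl1 (0.31), Oasl2 (0.31), Adar (0.09) and Psmb9 (0.05), and their robust SDs run to 0.57.

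The siCont BMP-2 array enters both this comparison and that with siENG, so a low reading of that array would lower this ratio and raise the other. Relative to all genes, siENG BMP-2 was the highest and siCont BMP-2 the lowest of the 3 arrays for 21 of 36 members (58.3%), against 1978 of 10419 genes (19.0%). The siCont BMP-2 array was lowest for 30 members (83.3%, against 29.8% of all genes), and the siENG array highest for 25 (69.4%, against 38.8%). In the signals as deposited, without removal of the shift between arrays, siENG was highest for 34 members (94.4%), against 68.0% of all genes. Relative to all genes, vehicle was highest for Ifit1, Ifit2, Igtp, Samhd1, Usp18, Ifi35, Parp14, Ccl5, Cxcl10 and Tap2 and siCont BMP-2 for Oasl1 alone.

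**Figure D3:**
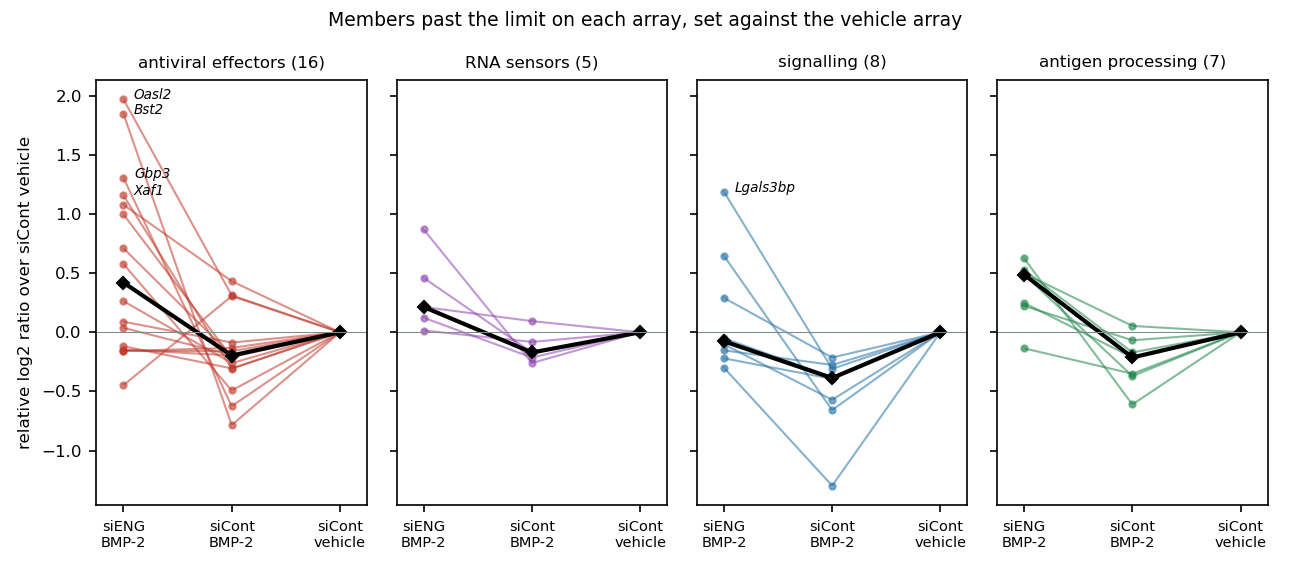
Relative log2 ratio over the siCont vehicle array (vertical axis) of each member past the limit on the siENG BMP-2, siCont BMP-2 and siCont vehicle arrays, in 1 panel per role; thin lines join the values of a gene and black diamonds are the medians. The medians of all 4 roles are lowest with siCont BMP-2, and that of the signalling genes is near vehicle with siENG, at -0.08.

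The genes listed as upstream of the members, or in signalling and feedback, were mostly near the median of all genes. No listed interferon gene was past the signal limit. Of 11 listed, 7 were read, with a highest signal of 11.9 with siENG and BMP-2, 17.2 with siCont and BMP-2 and 11.9 with siCont and vehicle, and Ifnb1, the interferon of fibroblasts, had 11.2, 13.6 and 11.9. These signals lie near or in the range of the Bacillus controls and have no order. Of 8 receptor chains and Janus kinases past the limit, 0 reached a relative ratio of 2 and 0 a ratio of 0.5 by the knockdown ratio, with a median log2 of 0.12. The largest was that of the receptor chain Ifnar2, with 575 with siENG and BMP-2, 335 with siCont and BMP-2 and 317 with siCont and vehicle (0.54), followed by Il10rb (0.35) and Jak2 (-0.26). The median over 14 signal factors and feedback genes past the limit was 0.11. This list also holds Isg20 (0.73), Uba7 (-0.15), Ube2l6 (-0.53) and Herc6 (0.03), which are not transcription factors. A ratio of 0.5 was reached by 0, against 1.72 percent of all genes, and a ratio of 2 by 1, against 1.40 percent. That gene was Irf7, which amplifies interferon production, with 190.3, 68.6 and 90.2 (1.23), and Irf9, the partner of Stat2, came close with 240.1, 106 and 136 (0.94). Nmi, which binds Stat factors, stood at 0.98. Of 10 nucleic acid sensing adaptors past the limit, none reached either ratio and the median was -0.02, with Trim21 at -0.76, Tlr3 at -0.62 and Cgas at -0.60.

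Of 26 further interferon-stimulated genes past the limit, 5 reached a knockdown ratio of 2, against 1.40 percent of all genes, and 0 a ratio of 0.5. The median log2 was 0.28, with 21 above 0 and 5 below, among them Ifi203 at -0.89. Oas2 and Iigp1, both among the 5, pass the limit only through the siENG array. With the limit on the siCont arrays alone, 3 of 23 reached a ratio of 2, against 1.19 percent of all genes. The 5 include the oligoadenylate synthetases Oas1a, with 169 with siENG and BMP-2, 52.6 with siCont and BMP-2 and 61.9 with siCont and vehicle (1.44), and Oas2, with 57.1, 12.1 and 23.7, whose middle value lies in the Bacillus range. Ifi27l2a, of the Ifi27 family, had 458, 132 and 145 on the same arrays (1.56). By the vehicle ratio the counts for this list were 4 and 1, against 1.40 and 1.84 percent of all genes, with a median of 0.08. By the BMP-2 ratio they were 1 and 0, against 1.01 and 0.662 percent, with a median of -0.21. Under the limit on the siCont arrays, 2 of 23 reached a vehicle ratio of 2, against 1.20 percent of all genes. A BMP-2 ratio of 2 was reached by 0, against 0.939 percent. Of 13 class I and peptide loading partners past the limit, none reached either ratio and the median was 0.17. The activator of the immunoproteasome Psme1 led with 1245 with siENG and BMP-2, 633 with siCont and BMP-2 and 726 with siCont and vehicle (0.73). The class I heavy chains H2-D1, at 2410.2, 1290.1 and 1503, and H2-K1, at 1482, 863 and 905, stood at 0.66 and 0.54. Sequences of class I heavy chains are close to each other, so these probe sets may share signal. Both MHC class II genes past the limit stayed between the ratios, Cd74 at 0.05 and H2-DMa at 0.43, and H2-Aa was dim on every array, at 2.2, 6.9 and 7.1.

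**Figure D4:**
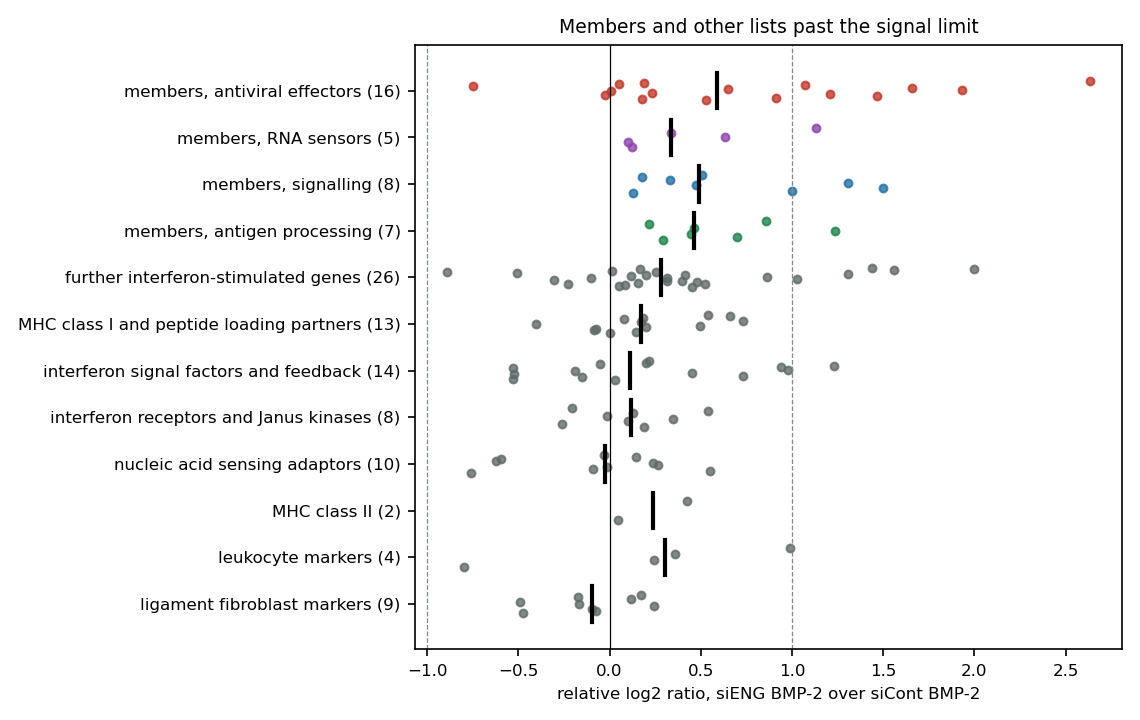
Relative log2 knockdown ratio, siENG against siCont, both with BMP-2 (horizontal axis), 1 point per gene past the limit, for the members by role and for other lists, with the number of genes in brackets and a black bar at the median; dashed lines mark ratios of 2 and 0.5. The medians of the members, at 0.34 to 0.59, lie to the right of those of all other lists shown, of which the leukocyte markers come nearest at 0.30. This order depends on the limit. The antiviral effectors Gbp3, Gbp2 and Sp100 pass it only through the siENG array, and without them the middle effector is Irgm1, at 0.23. With the limit on the siCont arrays alone, the median was 0.37 for 3 leukocyte markers and 0.26 for 23 further interferon-stimulated genes.

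The cells were checked against markers of other cell types, since leukocytes express many of the members. Ligament fibroblast markers were bright on all arrays, with summed signals of 48744 with siENG and BMP-2, 43934 with siCont and BMP-2 and 42639 with siCont and vehicle over 10 genes, and a median log2 knockdown ratio of -0.10 over the 9 past the limit. Of these 9, 0 reached a ratio of 2 and 0 a ratio of 0.5. The largest ratios were those of the matrix protein Postn, with 4614 with siENG and BMP-2, 5491 with siCont and BMP-2 and 4428 with siCont and vehicle (-0.49, robust SD 0.18), and the growth factor receptor Pdgfrb, with 1839, 2162 and 1662 (-0.48, robust SD 0.26). The intermediate filament protein Vim had 8925, 6385 and 7200.0 (0.24, robust SD 0.18). The collagen gene Col1a2 had 10255, 9773 and 9569, whereas Thy1, a surface protein of many fibroblasts, was within the Bacillus range at 1.1, 12.6 and 6.6. Leukocyte markers summed to 299 with siENG and BMP-2, 223 with siCont and BMP-2 and 237 with siCont and vehicle over 11 genes. Of these, 4 were past the limit, none at a knockdown ratio of 2 or 0.5. The lysosomal protein Cd68, not confined to leukocytes, had 118, 50.0 and 71.0 (0.99, robust SD 0.45), and Cd14 stood at -0.80 (robust SD 0.45). With the limit on the siCont arrays alone, Cd68 was the 1 of 3 leukocyte markers at a knockdown ratio of 2, against 1.19 percent of all genes. Lyz2, a lysozyme of myeloid cells, had 36.3 with siENG and BMP-2, 25.9 with siCont and BMP-2 and 11.5 with siCont and vehicle, and was the 1 leukocyte marker of these 4 to reach a ratio of 2 by the vehicle ratio (1.40) and by the BMP-2 ratio (1.16). It passes the limit only through the siENG array. Ptprc, the defining leukocyte marker, was in the Bacillus range at 8.1, 0.9 and 4.2. Endothelial markers summed to 48.1, 51.4 and 27.2 over 6 genes and epithelial markers to 57.2, 92.0 and 88.9 over 5 genes on the same arrays, with none past the limit. The part of the leukocyte genes in the ratios of the members was not tested.

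Members with and without an ISRE overlapped in their knockdown ratios. Bst2, Gbp3, Ifitm3, Ifih1 and Ifit3, all at a knockdown ratio of 2 or more, have a core ISRE in the window, as have Igtp, Eif2ak2 and Ifit1, which were near 0. Of the 9 members at that ratio with a window, 5 have the motif (55.6%), and of the 21 other members past the limit, 9 (42.9%). The median relative log2 ratio was 0.42 for the 14 members with it (0.01 to 2.63) and 0.50 for the 16 without (-0.75 to 1.66). Gbp3, among the 5, and Gbp2 have the motif and Sp100 does not, and all of them pass the limit only through the siENG array. Without these genes the middle of those with the motif lies between B2m (0.29) and Ddx58 (0.34). That of the members without it is then Tapbp (0.46). With GAS the median was 0.12 over 9 members and without it 0.53 over 21, Gbp3, Gbp2 and Sp100 among them. Elements outside the window, or with other letters, were not searched.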

How the data were processed

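Affymetrix mouse genome arrays measured total RNA of PDL-L2 cells, with 1 array for each of 3 conditions. The values are the authors' deposited signal intensity, on a linear scale, of 45101 probe sets. GCOS 1.4 is named in the submitters' processing notes. The sources used here do not give how signals were computed or scaled. Values of 0 (3 probe sets with vehicle and 1 with siCont and BMP-2) were set to 0.1, and 64 control probe sets were left out.

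Genes were named from the platform annotation through RefSeq. Of the probe sets, 34945 carried 1 symbol, with the controls left out. Counted with the controls, 932 carried several symbols and 9211 none. Genes were taken from the first kind alone. A gene was read by its probe set of highest mean log2 signal. Log2 ratios were taken relative to the median of genes past the signal limit, and genes at a ratio of at least 2 or at most 0.5 were counted. The robust SD (1.4826 times the median absolute deviation) was taken in 20 bins of mean log2 signal. The number of arrays limits the precision. Ratios were tested on simulated data with known answers. The simulated noise was that of the BMP-2 ratio, with a robust SD over all genes of 0.21, against 0.34 for the knockdown ratio. Recovery at the wider spread of the knockdown ratio was therefore not tested.

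Every member is named. Given in full were the members of each role with the largest ratios, the brightest of each and those whose probe sets disagree. Of each other list (interferons, receptors and kinases, factors and feedback, sensing adaptors, further stimulated genes, class I partners, class II, and leukocyte, endothelial, epithelial and fibroblast markers) the 2 or 3 largest ratios among genes past the limit were named, and no endothelial or epithelial marker was past it. Some others (Col1a2, Lyz2, Ifi203, Psmb5, Psmb6, Psmb7, Ifnb1, Cd14, Thy1, Ptprc and H2-Aa) were added for their role or value. The members, lists and tests were chosen with earlier results of these data known. Alternatives were 4 other scalings, 4 other limits (1 of them, on the siCont arrays alone, chosen after seeing the data), a floor at the median signal and 2 other choices of probe set. The work was done in Python 3.11.15 (numpy 2.4.6, pandas 2.3.3, statsmodels 0.14.6, matplotlib 3.10.9).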

Additional observations from a re-analysis of the deposited data

How the results depend on the processing

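Under the alternatives, the median relative log2 ratio of the members kept its sign in all 3 comparisons and moved by less than the robust SD of all genes. It ranged over 0.34 to 0.73 for the knockdown ratio. With no signal limit, over 41 members, 1 was at a ratio of 0.5 or less by the vehicle ratio (0 with the limit). By the BMP-2 ratio 1 was at 2 or more (0 with it) and 3 at 0.5 or less (1 with it). The calls added in this way were those of Cmpk2, Mx1 and Mx2, each with a signal in the Bacillus range. No share over all genes was counted without the limit, so these calls are not read as a result. With the limit at the 75th percentile, over 19 members, 5 reached 2 for the knockdown ratio (11 at the median limit), 3 by the vehicle ratio (6), and 0 were at 0.5 or less by the BMP-2 ratio (1). With the limit on the mean of the siCont arrays, chosen after seeing the data, 10 of 33 reached 2 for the knockdown ratio and 5 of 33 by the vehicle ratio. The other counts stayed within 1.5 times. In the signals as deposited, Rtp4 and Tap1 also reached a knockdown ratio of 2. The mean over probe sets moved Rtp4 to 0.24 and Xaf1 to 1.09. Among all genes the split of calls for the knockdown ratio depends on the scaling, with 146 at 2 or more and 179 at 0.5 or less relative to the median, 310 and 71 as deposited, and 174 and 132 after quantile normalization. By the vehicle ratio it was 146 and 192, 324 and 84, and 185 and 147 under the same scalings. No paired analysis was possible because each condition has 1 array. Dim members, such as Gbp3, Gbp2, Sp100 and Oasl1, are limited by their signal over background.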
